A study of Mus musculus with 41 samples.

Results

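The heat shock chaperones described here were 10 genes chosen by name: the stress-inducible Hsp70 genes Hspa1a and Hspa1b, the constitutive Hsp70 gene Hspa8, the cytosolic Hsp90 genes Hsp90aa1 and Hsp90ab1, the J-protein genes Dnajb1 and Dnaja1, the Hsp110 gene Hsph1, and the mitochondrial chaperonin genes Hspe1 and Hspd1. All 10 were present among 19221 genes of a single-cell matrix and among 23420 genes of a bulk matrix. The study profiled immune cells of the mouse small intestine in health and in ovalbumin-induced food allergy, and tested how the neuropeptide α-CGRP and the cytokine IL-25 act on group 2 innate lymphoid cells (ILC2s). All animals were female BALB/cJ mice labelled wild type, 10 weeks old for the single-cell libraries and 8 weeks old for the cultures. Single-cell libraries of the lamina propria came from a sort named nonTB (3 control, 3 food allergy) and a sort named IgDLow (1 control, 1 food allergy); the labels define neither name. The Peyer's patches gave 10 control libraries and 9 food allergy libraries. Control mice were untreated. Each bulk library came from 250 sorted KLRG1+ ILC2s, cultured for 3 hours. The cytokines IL-7 and IL-2, each at 100 ng/ml, were in the medium of all 4 culture groups: 3 libraries with nothing further (base medium), 3 with IL-25 at 100 ng/ml, 4 with α-CGRP at 0.4 µg/ml and 3 with both. Whether the libraries of a group stem from different animals or separate wells is not stated in the labels, and p-values cover only the variation among the libraries at hand, which may be technical.

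Heat shock proteins hold unfolded or newly made proteins and pass them through cycles of binding and release. Hsp70 proteins bind short exposed stretches, J-proteins deliver substrates and speed up Hsp70's ATP cycle, Hsp110 exchanges the nucleotide, and Hsp90 completes the folding of kinases and receptors. Heat shock factor 1 drives the stress-inducible members by binding repeats of the unit nGAAn upstream of their start sites, whereas Hspa8 and Hsp90ab1 are made in unstressed cells too.

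Promoter windows of 250 bases upstream of the start site (RefSeq, GRCm38.p6) were matched for 7 of the 10 genes. They are shown for Hspa1a and Hspa1b because their levels in ILC2-like cells, given later, differed the most in ratio. For 3 further members with a window that held a facing pair of heat shock units, 30-base stretches are shown. Capitals mark these units, sought as GAANNTTC or TTCNNGAA. Each motif is its own reverse complement, so the search covers both strands.
Hspa1a: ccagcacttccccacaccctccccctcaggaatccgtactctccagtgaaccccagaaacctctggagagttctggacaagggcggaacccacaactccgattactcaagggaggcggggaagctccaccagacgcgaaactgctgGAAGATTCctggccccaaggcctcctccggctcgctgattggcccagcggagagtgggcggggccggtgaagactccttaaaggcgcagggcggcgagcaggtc
Hspa1b: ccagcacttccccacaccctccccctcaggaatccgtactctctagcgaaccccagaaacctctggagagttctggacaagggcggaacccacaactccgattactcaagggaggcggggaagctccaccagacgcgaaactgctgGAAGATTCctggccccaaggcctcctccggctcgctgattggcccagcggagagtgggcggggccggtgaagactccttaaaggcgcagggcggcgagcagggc
Hspe1: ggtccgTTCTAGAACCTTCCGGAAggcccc
Dnaja1: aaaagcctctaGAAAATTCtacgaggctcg
Hsph1: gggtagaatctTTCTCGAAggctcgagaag
The Hspa1a window was chr17:34972157-34972406 and the Hspa1b window chr17:34959239-34959488, both on the minus strand. In both, GAAGATTC ended 96 bases before the start site. The windows were identical at 247 of 250 positions and differed at C44T, T47C and T249G, counted from 1 at the 5′ end with the Hspa1a base first. The Hspe1 stretch was chr1:55088053-55088082 on the plus strand, with its match ending 71 bases before the start. This 18-base run of alternating units also lay in 1 of 2 Hspd1 windows, read from the opposite strand, since the 2 genes are neighbours facing apart. There it was 126 bases from the start, and the other Hspd1 window held no match. The Dnaja1 stretch was chr4:40722333-40722362 on the plus strand. Its match was 116 bases before the start of 1 of 3 Dnaja1 windows, and the others held none. The Hsph1 stretch was chr5:149636351-149636380 on the minus strand. Its match was 46 bases before the start of 1 Hsph1 window and 25 bases before that of the other. Among 32851 promoter windows of this length, 6.69% held GAANNTTC, 7.17% held TTCNNGAA and 12.8% held either; a run of 3 units (GAANNTTCNNGAA or TTCNNGAANNTTC) was in 153 windows, or 0.466%. Both Dnajb1 windows lacked these letters. A match is a description of letters and not a measured binding site.

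Hspa1a (chr17:34969190-34972156) and Hspa1b (chr17:34956436-34959238), positions from the GENCODE annotation of the same build, are single-exon genes on the minus strand with 9951 bases between them. Their coding sequences were identical at 1889 of 1923 positions (98.2%), so reads can be assigned to either copy and each gene's own value is uncertain. The stretches after the stop codon, which 3′ libraries sample, were 810 and 643 bases long, with only 24 bases in shared blocks of at least 20 bases. The other members lay at chr9:40800984-40810087 (Hspa8), chr12:110690605-110702728 (Hsp90aa1), chr17:45567775-45573271 (Hsp90ab1), chr8:83608193-83612653 (Dnajb1), chr4:40722150-40737149 (Dnaja1), chr5:149614287-149636376 (Hsph1), chr1:55088132-55091307 (Hspe1) and chr1:55077835-55088243 (Hspd1).

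The single-cell matrix held 58067 cells in 27 libraries of 379 to 3891 cells, with 1115608 to 18742802 unique molecular identifiers (UMIs) per library. Cells were assigned to classes by markers; a class is written as "ILC2-like" and so on, and 77.1% of cells were assigned. The monocyte-like class had none of its own markers among its top 10 genes by fold, and 56.0% of ILC3-like and 56.4% of type 2 dendritic (DC2)-like cells sat at the minimum of 3 markers. Library titles carry a date whose meaning the labels do not give. Peyer's patch libraries fell on dates 1 to 5, and lamina propria nonTB libraries 1 and 2 on date 6. Library 3 of the nonTB sort and both IgDLow libraries fell on date 7, and each date held both conditions. Within a date, 949 cells (1.63%) shared a barcode with another library; leaving them out ended 3 of the calls below, given beside each. The Peyer's patch libraries of date 1 stood apart for the chaperones: the 10 genes together made up 5199 to 7987 counts per 1000000 UMIs (CPM) in its 5 libraries, against 2341 to 4015 in the 14 of dates 2 to 5 and 1707 to 2966 in the 8 lamina propria libraries. Bulk libraries held 6942764 to 21551901 expected counts, of which the ribosomal RNA gene Rn45s took 57.5% to 78.7%. All 7 genes of the ILC2 marker list were detected in all 13 bulk libraries. Their summed level was 1141 to 3525 CPM, with Calca at 514 to 1998 and Gata3 at 302 to 823. The ILC3 list summed to 49.0 to 252 CPM (Il22 4.62 to 178) and the T cell list to 32.4 to 97.0 CPM. Within the T cell list Cd28 was at 25.4 to 83.6 and Cd3e at 0.0853 to 1.21. The follicular B cell and mast cell lists summed to 4.14 to 29.0 and 8.59 to 47.3 CPM.

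Of 17 chaperone differences called in the lamina propria nonTB sort, 7 were in ILC2-like cells, the innate producers of IL-5 and IL-13. There food allergy cells had more Hspa1a, Hspa8, Hsp90aa1, Hsp90ab1, Dnajb1 and Hspe1 and less Dnaja1 than control cells. Of the 10 genes, 8 had enough UMIs for the test; 6 rose and 1 fell, where 17.6% of the 3203 genes tested were called (10.4% up, 7.15% down). The median log2 fold change of the 8 was 0.70, against -0.00435 over all genes tested. The sums rested on 427 control cells (150, 177 and 100 in libraries 1 to 3) and 507 food allergy cells (174, 211 and 122), with 720754 and 875767 UMIs. Levels below are CPM of these sums, in the order of libraries 1, 2 and 3; fold changes and adjusted p-values are from edgeR's quasi-likelihood test with Benjamini-Hochberg adjustment, with the date as a term.

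Hspa1a, whose protein is the main stress-inducible Hsp70, was at 0, 3.66 and 0 in the control libraries and at 57.9, 162 and 378 in the food allergy libraries. The control cells held 1 UMI in all and the food allergy cells 172, so the groups were far apart and library 3 was the highest. Their ratio was 142 (95% interval 25.1 to 5623, counting error only), and the fitted log2 fold change was 6.86 (SE 0.641, adjusted p = 3.06e-07 by edgeR). That fitted size was unstable: leaving out control library 2 gave 9.13, and leaving out library 3 of either condition gave 5.68. With the date as a term, leaving out either library 3 lets date 6 alone set the difference. In every lamina propria class these 2 omissions are therefore not separate checks. The gene passed the count filter only through the food allergy group, so a difference was built into its being tested. Hspa1b was at 0 in all control libraries and at 15.4, 22.7 and 49.1 in food allergy, 25 UMIs in all, at least 6.86-fold higher against a floor of 3 UMIs over the control group; it was too low for the test. The pair summed gave a log2 fold change of 7.05 (SE 0.613, adjusted p = 1.39e-07 by edgeR), and it too passed the filter only through the food allergy group.

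Few ILC2-like cells carried the Hspa1a UMIs. In the food allergy libraries 5 of 174, 11 of 211 and 17 of 122 cells had at least 1 UMI (2.87%, 5.21% and 13.9%), and single cells held up to 5, 18 and 23 UMIs. Among the control cells 0 of 150, 1 of 177 and 0 of 100 had one. With every cell thinned to 1000 UMIs the food allergy shares were 1.97%, 5.15% and 10.3%. In plasmacytoid dendritic (pDC)-like cells of the same food allergy libraries, which were deeper (median 2771, 3104.5 and 4185 UMIs per cell, against 1469.5, 1613 and 2176), 0.437%, 0.450% and 6.06% had an Hspa1a UMI. The ILC2-like share was the larger in each of the 3 libraries, and in both classes library 3 had the largest share.

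Hspa8, the constitutive Hsp70 that also uncoats clathrin vesicles, was at 1306, 1171 and 954 in control and at 2108, 2146 and 2311 in food allergy. The groups did not overlap, and the 3 food allergy libraries lay close together. The rise was 2.10-fold (log2 1.07, SE 0.105, adjusted p = 6.16e-07 by edgeR). Unlike Hspa1a, Hspa8 was found in most cells: 76.0%, 76.3% and 80.0% of control cells and 91.4%, 91.5% and 94.3% of food allergy cells had a UMI. Thinned to 1000 UMIs, the shares were 69.6%, 65.4% and 58.2% against 84.9%, 88.1% and 86.3%.

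Hsp90aa1, the inducible cytosolic Hsp90, was at 212, 176 and 253 in control and at 278, 298 and 468 in food allergy. It rose 1.77-fold (log2 0.83, SE 0.166, adjusted p = 0.00165 by edgeR), with no overlap between groups. Hsp90ab1, its constitutive counterpart, was at 405, 388 and 541 against 502, 503 and 770. Control library 3 lay above food allergy libraries 1 and 2, and within each date food allergy was the higher; the fitted change was 1.44-fold (adjusted p = 0.00781 by edgeR). Both calls rest on the date term: without it the adjusted p was 0.0691 for Hsp90aa1 and 0.208 for Hsp90ab1. In DESeq2 Hsp90ab1 did not pass (adjusted p = 0.109).

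The 2 J-protein genes moved in opposite directions. Dnaja1, an Hsp40 co-chaperone of Hsc70 and Hsp70, was at 2315, 2378 and 2564 in control and at 1193, 966 and 1057 in food allergy. The groups were widely separated, and the fall was 2.07-fold (log2 fold change -1.05, SE 0.0927, adjusted p = 1.80e-07 by edgeR). It stayed between -1.12 and -0.96 with each library left out in turn. Dnajb1, the stress-inducible J-protein, was at 108, 80.5 and 97.6 in control and at 124, 153 and 181 in food allergy. It rose 1.76-fold (log2 0.82, SE 0.217, adjusted p = 0.0127 by edgeR) without overlap, and the call was lost without control library 2, control library 3 or food allergy library 3 (adjusted p = 0.0699, 0.0562 and 0.0539), without the date term (0.0608) and in DESeq2 (0.225).

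Hsph1, the Hsp110 nucleotide exchange factor, was too low for the test, at 18.0, 22 and 4.44 in control and 7.72, 8.53 and 34.0 in food allergy (11 and 14 UMIs). Hspe1, the mitochondrial co-chaperonin, was at 225, 230 and 311 against 266, 304 and 483. The groups overlapped, within each date food allergy was higher, and the fitted change was 1.49-fold (adjusted p = 0.0174 by edgeR; 0.209 without the date term). The Hspe1 call was lost without control library 1 or 3 or food allergy library 2 or 3 (adjusted p = 0.0531 to 0.0953), in DESeq2 (0.203) and with 4 markers required (0.0719). Hspd1, the mitochondrial chaperonin, was at 104, 84.1 and 93.2 against 61.8, 68.2 and 60.4. The groups did not overlap, but the log2 difference of -0.41 did not pass the test (adjusted p = 0.290 by edgeR).

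**Figure D1:**
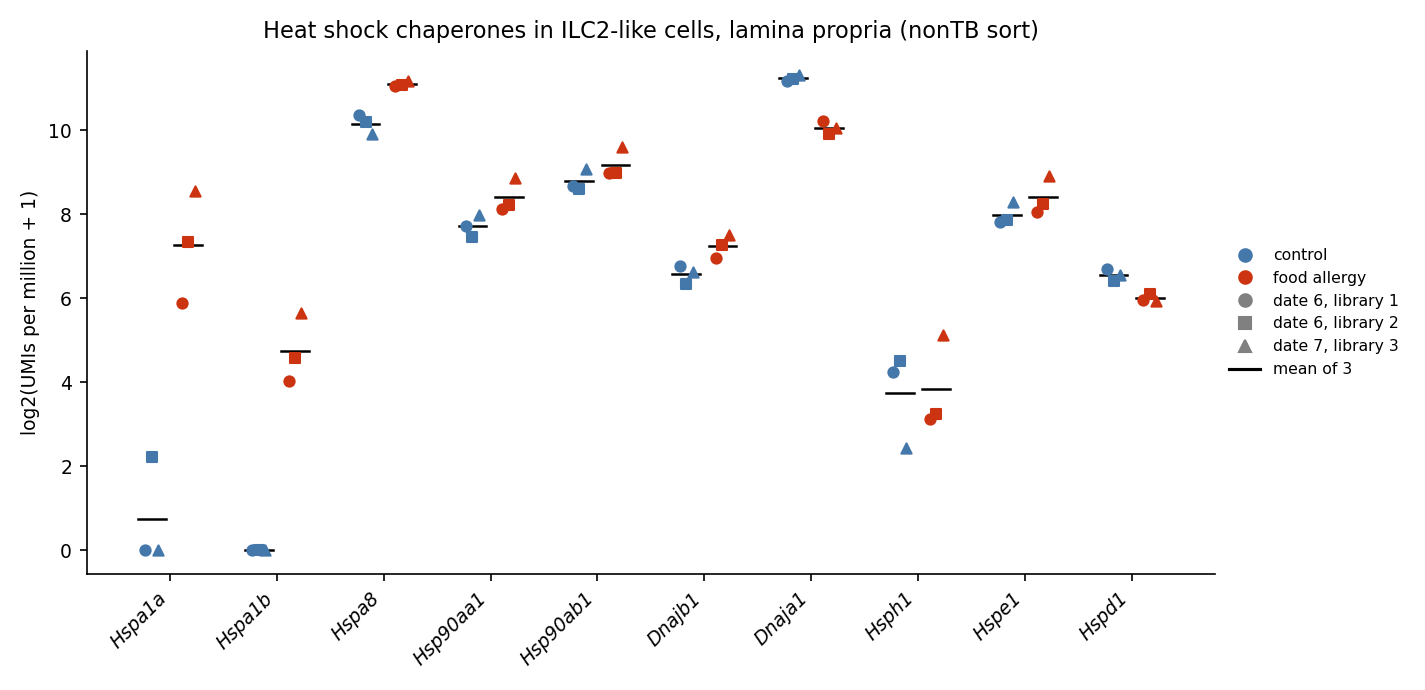
Levels of the 10 chaperone genes in ILC2-like cells of the lamina propria nonTB sort; each point is 1 library (3 control, 3 food allergy), the bars are group means and the vertical axis is log2(CPM + 1). Hspa1a and Hspa1b are near 0 in control and present in all 3 food allergy libraries, Hspa8 is higher and Dnaja1 lower in every food allergy library, and the Hsp90ab1 and Hspe1 points of the groups overlap.

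Of 32 listed heat shock factors and co-chaperones, 18 were tested and 2 rose (median log2 fold change -0.00286), a share near the 10.4% of all genes that rose: Hspa4, an Hsp110 family member, from a mean of 89.6 to 167 (2.00-fold, adjusted p = 0.00274 by edgeR), and the J-protein gene Dnaja2 (1.88-fold, adjusted p = 0.00730). None of 7 tested subunits of the cytosolic chaperonin TRiC and neither of 2 further mitochondrial chaperones was called. Of 14 tested chaperones of the endoplasmic reticulum 1 was called, the J-protein gene Dnajb9, which fell from 75.7 to 29.4 (2.32-fold, adjusted p = 0.0152).

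Several other measured quantities moved with food allergy in the same ILC2-like sums, and their part in the chaperone differences was not tested. Of 21 tested immediate early genes, which respond within minutes to stimulation and to tissue handling, 2 rose and 9 fell, among them Ppp1r15a (1190 to 309, 3.52-fold), Fos (4296 to 1391, 2.74-fold) and Dusp1 (2947 to 1139, 2.31-fold). Of 11 genes listed for RNA quality 6 rose, including mt-Co1 (6084 to 7191, 1.29-fold). The summed mast cell list (8 genes, 1 of them at 0) was 0 to 9.01 in control and 56.8 to 65.6 in food allergy, with Mcpt1 at 0 in control and 19.9 to 49.1 in food allergy. The germinal centre list ran from 176 to 212 against 318 to 408, and the natural killer (NK) list from 39.9 to 80.5 against 96.6 to 131. The ILC3 and pDC lists were lower in food allergy (132 to 197 against 266 to 293, and 143 to 189 against 311 to 347), while the plasma cell list overlapped.

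Across the 9 lamina propria classes with enough cells, 68 tests of the 10 genes gave 16 rises and 1 fall, and 2 classes gave no call. Over the same classes 3.94% of all 35719 tests passed (2.45% up, 1.49% down), a share that was 17.6% in ILC2-like cells and 0.994% to 3.82% in the others. The 1 fall was that of Dnaja1 in ILC2-like cells. By gene, Hsp90aa1 rose in 5 of 9 classes, Hspa1a in 4 of 5, Hspa8 in 4 of 9, and Hsp90ab1 (of 9), Dnajb1 (of 7) and Hspe1 (of 9) in 1 class each, the ILC2-like. For Hspa1a, the tests in ILC2-like and DC2-like cells came about only through the food allergy counts. Hsph1 (3 classes) and Hspd1 (8 classes) were not called in any, and Hspa1b was too low everywhere. Fitted values of Hspa8 were above 0 in all 9 classes, those of Dnaja1 in 2 of 9. The median of the chaperones tested exceeded that of all genes tested in 7 of 9 classes, with medians of -0.05 to 0.70. All classes come from the same libraries, so counts of classes are not counts of replicates. Without the date term 5 of the 17 calls were kept: Hspa1a, Hspa8 and Dnaja1 in ILC2-like cells and Hspa1a in type 1 dendritic (DC1)-like and DC2-like cells.

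Food allergy library 3, on date 7, was the highest of its 3 libraries in 9 of 9 classes for Hspa1a, Hsp90aa1, Hsp90ab1 and Hspe1, in 8 for Hspa1b and Dnajb1 and in 6 for Hspa8. Control library 3 of the same date was the highest control in 9 classes for Hspe1, in 8 for Hsp90ab1 and in 7 for Hsp90aa1, but in 4 for Hspa1a. Without food allergy library 3, ILC2-like cells kept Hspa1a (log2 5.68), Hspa8 (0.92), Dnaja1 (-0.99), Hsp90aa1 (0.72) and Hsp90ab1 (0.48), and lost Dnajb1 (adjusted p = 0.0539 by edgeR) and Hspe1 (adjusted p = 0.0953).

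In DC1-like cells (270 control, 238 food allergy), which cross-present antigen to CD8 T cells, 2 of 9 tested chaperones rose, where 1.96% of genes were called (1.01% up). Hspa1a was at 52.1, 37.1 and 48.2 in control and at 243, 222 and 348 in food allergy. Every food allergy library was several times above every control, and the rise was 6.23-fold (log2 2.64, SE 0.161, adjusted p = 9.18e-08 by edgeR); without food allergy library 3 it was 2.47. Hsp90aa1, at 156, 213 and 153 against 246, 227 and 320, rose by 0.65 on the log2 scale (adjusted p = 0.0329), a call that was lost without control library 1 or 3 or food allergy library 1 or 3 (adjusted p = 0.124 to 0.184), in DESeq2 (0.102) and with 4 markers required (0.0892). The mast cell list in these sums was 0 to 2.17 in control and 37.1 to 54.1 in food allergy. Of 22 tested immediate early genes 5 rose and 3 fell, with Nfkbia 3.02-fold and Jun 2.79-fold higher and Btg2 1.67-fold lower, and of 11 RNA quality genes 1 rose (Neat1, 1.71-fold) and 3 fell, among them mt-Nd1 (1.29-fold). The part of these in the chaperone differences was not tested.

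In DC2-like cells (97 control, 56 food allergy) 2 of 7 tested chaperones rose, where 1.25% of genes were called (0.749% up). Hspa1a was at 10.4, 0 and 26.7 in control and at 165, 239 and 292 in food allergy (log2 3.94, SE 0.433, adjusted p = 0.00606 by edgeR). As in ILC2-like cells, it passed the count filter only through the food allergy group, so a difference was built into its being tested. The groups did not overlap, but the call was lost without control library 1 (adjusted p = 0.107), and the log2 fold change became 4.86 without control library 3 and 4.91 without food allergy library 3. With cells on 1 marker list only it was 3.34 (adjusted p = 0.0719). Hspa8 was at 1821, 1933 and 1853 against 2756, 2916 and 2443 (log2 0.53, adjusted p = 0.0406), and that call was lost without any 1 library other than control library 3 (adjusted p up to 0.265) and without cells that share a barcode (adjusted p = 0.0598), in DESeq2 (0.181) and with cells on 1 list only (0.111). Of 11 RNA quality genes mt-Co2 fell (3681 to 2622), and its part was not tested.

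In ILC3-like cells (476 control, 350 food allergy) 1 of 7 tested chaperones rose, where 1.79% of genes were called (0.707% up). Hsp90aa1 was at 185, 181 and 369 in control and at 331, 306 and 848 in food allergy. Libraries 3 of both groups were high, so the groups overlapped, and within each date food allergy was higher (log2 1.00, SE 0.172, adjusted p = 0.00140 by edgeR; 0.455 without the date term and 0.186 with 4 markers required). Hspa1a was at 8.60, 0 and 35.5 against 34.5, 162 and 718, or 15 against 247 UMIs, a ratio of 23.9 (95% interval 14.2 to 43.4, counting error only). It did not pass the count filter alone, and the pair with Hspa1b rose 15-fold (adjusted p = 1.16e-07 by edgeR). The control levels of the pair would not have passed that filter by themselves. Food allergy library 3 held most of the Hspa1a UMIs, with 46 of 150 cells positive against 3 of 104 and 4 of 96 in the others. Hspa8 was at 1161, 1119 and 1096 against 1311, 1505 and 1603 without overlap and did not pass (log2 0.40, adjusted p = 0.0611). Of 21 tested immediate early genes 7 fell here, and the mast cell list went from 0 to between 56.5 and 87.4; the part of either was not tested.

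In plasma-like cells (1670 control, 1877 food allergy), which secrete antibody, 2 of 9 tested chaperones rose, where 3.55% of genes were called (2.61% up). Hspa1a was at 3.59, 1.45 and 12.5 in control and at 9.20, 7.25 and 39.4 in food allergy. Control library 3 exceeded food allergy libraries 1 and 2, and within each date food allergy was higher (3.45-fold, log2 1.79, SE 0.212, adjusted p = 0.00324 by edgeR; 0.275 without the date term). Hsp90aa1, at 44.1, 41.7 and 62.6 against 58.2, 63.2 and 211, overlapped between groups and rose by 1.08 on the log2 scale (adjusted p = 0.0152), and by 0.68 without food allergy library 3. The Hsp90aa1 call was lost without control library 2 or food allergy library 1 (adjusted p = 0.0512 and 0.0576), and without the date term (0.167). Of 23 tested immediate early genes 1 fell, Ppp1r15a (103 to 65.5), as did 1 of 11 RNA quality genes, mt-Nd1 (2270 to 1550); their part was not tested.

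In pDC-like cells (1071 control, 550 food allergy), the main producers of type I interferon, 2 of 8 tested chaperones rose, where 2.62% of genes were called (1.81% up). Hspa8 was at 1287, 1222 and 1192 against 1447, 1560 and 1613, a small rise without overlap (log2 0.36, adjusted p = 0.00358 by edgeR; 0.450 without the date term and 0.0657 without control library 2). Hsp90aa1 was at 188, 196 and 241 against 217, 256 and 379, overlapping between groups (log2 0.48, adjusted p = 0.0111; 0.113, 0.149 and 0.153 without control library 1, control library 3 and food allergy library 3). Hspa1a, at 4.4, 9.27 and 0.447 against 1.5, 1.38 and 61.6, was lower in food allergy libraries 1 and 2 than in control libraries 1 and 2. Immediate early genes ran the other way from the ILC2-like class here, with 12 of 22 tested higher and 1 lower. Of 11 RNA quality genes Neat1 rose (384 to 846, 2.28-fold) and mt-Nd1 fell (6148 to 5108, 1.17-fold), and the part of either list was not tested. With cells on 1 marker list only, the adjusted p was 0.0628 for Hspa8 and 0.151 for Hsp90aa1, and for Hsp90aa1 it was 0.157 in DESeq2.

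In macrophage-like cells (181 control, 180 food allergy) 1 of 7 tested chaperones rose, Hspa8 (1346, 1316 and 1323 against 1605, 1769 and 2148; log2 0.58, adjusted p = 0.0498 by edgeR), where 3.8% of genes were called (2.58% up), and the call was lost without any 1 library other than control library 1 (adjusted p up to 0.240) and without cells that share a barcode (adjusted p = 0.0659), with 4 markers (0.0639), 2 markers (0.111) or cells on 1 list only (0.184). Of 23 tested immediate early genes 2 rose here, Egr2 (52.1 to 206) and Ier3 (215 to 461), and their part was not tested. Hspa1a did not pass (127, 106 and 265 against 116, 108 and 396; adjusted p = 0.485). No chaperone was called in NK- or ILC1-like cells (7 tested; 0.994% of genes called) or monocyte-like cells (6 tested; 3.82% of genes called). In the latter Hspa1a was at 0 in all 3 control libraries and at 98.8, 30.8 and 385 in food allergy, 86 UMIs in all and at least 14.3-fold higher, from 50 and 109 cells.

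**Figure D2:**
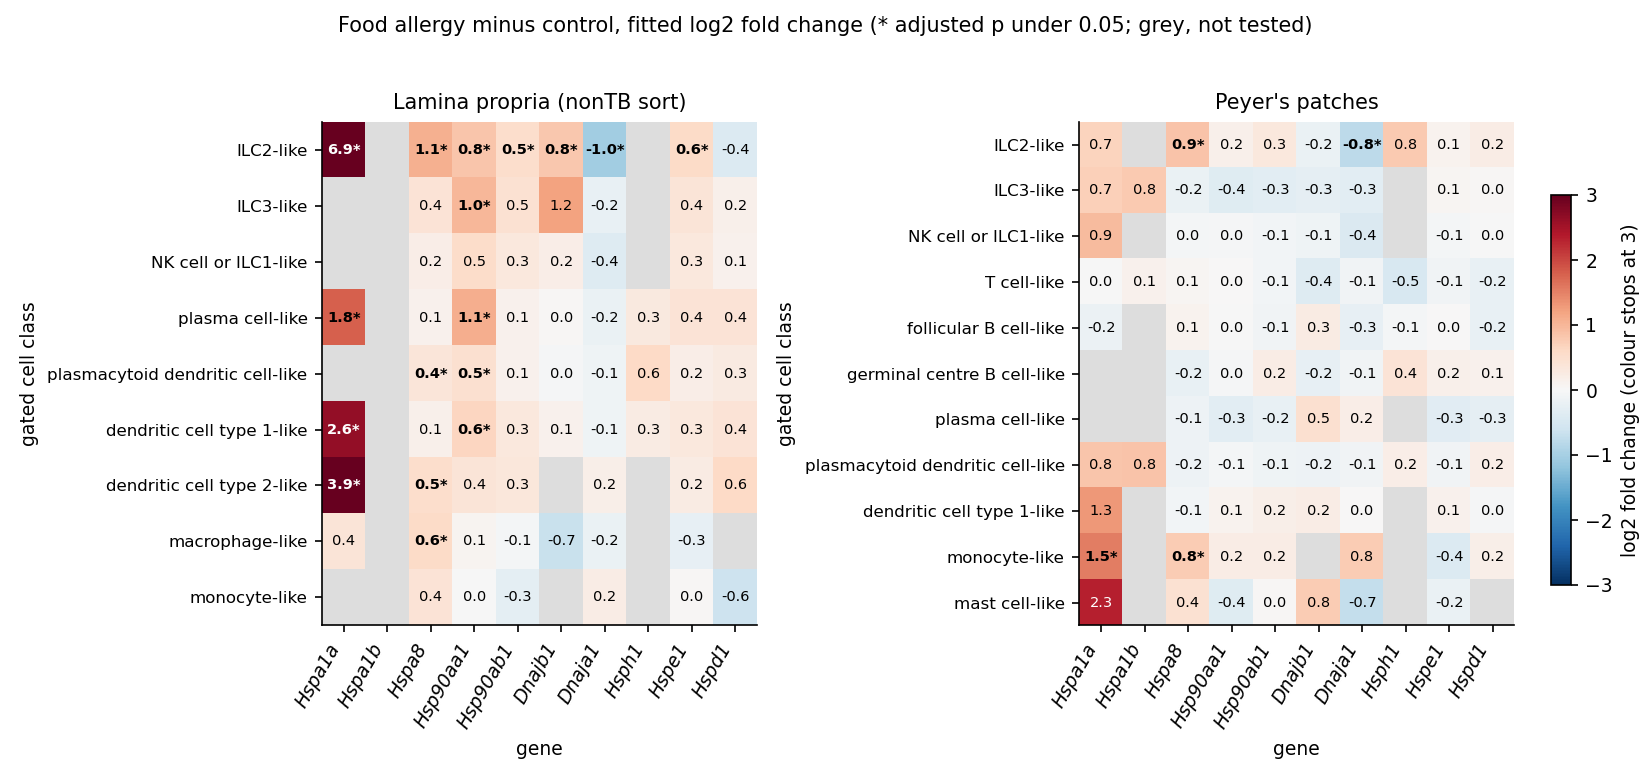
Fitted log2 fold change of food allergy over control for each chaperone gene (columns) and gated class (rows) in the lamina propria nonTB sort and the Peyer's patches; stars mark adjusted p under 0.05, grey cells were not tested and the colour scale stops at 3. In the lamina propria the Hspa8 column is above 0 in 9 of 9 classes and Dnaja1 in 2 of 9, and ILC2-like cells hold the most calls.

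Dnaja1 was higher in ILC2-like cells than in any other class measured in 3 lamina propria libraries of a condition. In the control lamina propria it stood at 2419 ± 129 CPM (SD, n = 3) in ILC2-like cells, against 505 ± 39.5 in ILC3-like and 349 ± 19.7 in NK- or ILC1-like cells. Monocyte-like (219 ± 86.5) and DC1-like (198 ± 34.5) cells came next and did not differ beyond their spread, and plasma-like cells were lowest at 60.7 ± 3.85. In food allergy ILC2-like cells were still highest at 1072 ± 114, followed by T-like cells at 506 ± 147 and ILC3-like cells at 432 ± 77.5. In control Peyer's patches ILC2-like cells averaged 1394 ± 809 over 4 dates, with ILC3-like cells at 503 ± 177. These levels are a description of classes defined from the same cells.

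Hspa8 ranked differently. In control lamina propria the highest levels were in DC1-like (2274 ± 85.4, SD, n = 3), monocyte-like (2236 ± 385) and DC2-like cells (1869 ± 57.8), of which the first 2 did not differ beyond their spread. Macrophage-like (1328 ± 15.7), NK- or ILC1-like (1264 ± 161), pDC-like (1234 ± 48.4), ILC2-like (1144 ± 178) and ILC3-like cells (1125 ± 33.0) formed a band in which neighbours did not differ beyond their spread, and stromal-like (449 ± 104) and plasma-like cells (339 ± 82.6) were lowest. In food allergy ILC2-like cells stood at 2188 ± 108. Hspa1a was highest in macrophage-like cells in control (166 ± 86.5), followed by DC1-like (45.8 ± 7.76) and mature dendritic-like cells (43.6 ± 38.2). In food allergy it was at 490 ± 425 in T-like cells (44 cells), 305 ± 364 in ILC3-like and 271 ± 67.5 in DC1-like cells; the first 2 spread as widely as their means.

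Peyer's patch libraries of a date and condition were summed, since they may share animals. Libraries of dates 1 and 2 carry a position letter, D, I or J. The food allergy library that was not analysed was D of date 1. The food allergy sums of that date thus lack D while its control sums hold all positions. Here 92 tests over 11 classes gave 3 rises and 1 fall, where 0.453% of all tests passed (0.236% up, 0.217% down), and 9 classes gave no call. The median of the chaperones tested exceeded that of all genes tested in 5 of 11 classes (medians -0.23 to 0.23). ILC2-like cells, which had enough cells for both conditions on dates 4 and 5 (146 and 194 control cells, 153 and 278 food allergy cells), gave 1 rise and 1 fall, where 1.75% of genes were called (1.03% up, 0.72% down). Hspa8 was at 1053 and 1130 in control and at 2042 and 1836 in food allergy, 1.81-fold higher (log2 0.86, SE 0.114, adjusted p = 0.00199 by edgeR). Dnaja1 was at 1570 and 2158 against 1045 and 1047, 1.73-fold lower (log2 fold change -0.79, SE 0.126, adjusted p = 0.00594). Neither gene's groups overlapped, and each moved in the direction it had in the lamina propria. With 2 sums per condition and the date term, the fit left 1 residual degree of freedom, so its p-values lean on variation estimated across genes. Both calls were lost without the date term (adjusted p = 0.221 for Hspa8 and 0.346 for Dnaja1), and that of Dnaja1 also with 2 markers required (log2 fold change -0.43, adjusted p = 0.527). Of 23 tested immediate early genes 1 rose and 10 fell in these sums, among them Fos (3168 to 1131), Ier2 (1946 to 704) and Jund (3079 to 1366), and their part was not tested. Hspa1a was at 30.7 and 130 against 65.6 and 177 and did not pass (log2 0.68, adjusted p = 0.290).

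The other 2 Peyer's patch calls were in monocyte-like cells, of which there were only 11 and 12 control and 25 and 74 food allergy cells, and where 1.26% of genes were called (0.932% up). As in ILC2-like cells, this fit left 1 residual degree of freedom. Hspa1a was at 184 and 254 against 610 and 694 (2.90-fold, log2 1.54, SE 0.307, adjusted p = 0.000110 by edgeR). Hspa8 was at 1692 and 1359 against 2410 and 2781 (log2 0.77, adjusted p = 0.0219; 0.0949 without cells that share a barcode). The groups did not overlap for either gene; neither passed in DESeq2 or without the date term (adjusted p = 0.327 for Hspa1a and 0.628 for Hspa8). Of 22 tested immediate early genes 2 rose in these sums, Jun (370 to 843) and Rhob (75.0 to 301), and their part was not tested. In the main analysis no chaperone was called by edgeR in the other 9 classes. The share of all genes called was 0.729% in ILC3-like, 1.09% in NK- or ILC1-like, 0.0213% in T-like, 0.0341% in follicular B-like, 0.0326% in germinal centre B-like, 0.0666% in plasma-like, 0.0351% in pDC-like, 0% in DC1-like and 0.869% in mast-like cells. Few genes of any kind were thus called there.

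Hspa1a in the Peyer's patches differed widely between dates. Its median over classes was 1264 CPM in control and 740 in food allergy on date 1, and 0 in both on date 2, where no class exceeded 3.00. On date 3 the medians were 34.4 and 11.1, on date 4 they were 30.7 and 146, and on date 5 they were 58.5 and 196. Among classes with a sum in both conditions, food allergy was higher in 2 of 6 on date 1, in 0 of 7 on date 2 (4 of them equal), in 2 of 6 on date 3, in 9 of 10 on date 4 and in 15 of 18 on date 5. The classes of a date come from the same libraries and are not replicates. The classes higher on date 1 were DC1-like (1502 in control, 1980 in food allergy) and follicular B-like cells (579 and 746). T-like cells were at 1012, 1.61, 23.1, 7.65 and 54.2 over dates 1 to 5 in control and at 734, 0.467, 7.15, 185 and 176 in food allergy. ILC3-like cells were at 1737, 0, 107, 36.8 and 214 against 411, 0, 35.4, 236 and 536. Without date 1 the calls rose to 7, and Hspa1a then rose in DC1-like (log2 1.91, adjusted p = 0.00188 by edgeR), ILC3-like (1.61, adjusted p = 0.00223) and NK- or ILC1-like cells (2.00, adjusted p = 1.72e-05). In DC1-like cells the log2 fold change of 1.30 with all dates (adjusted p = 0.371) also passed without date 4 (1.30, adjusted p = 0.00371).

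**Figure D3:**
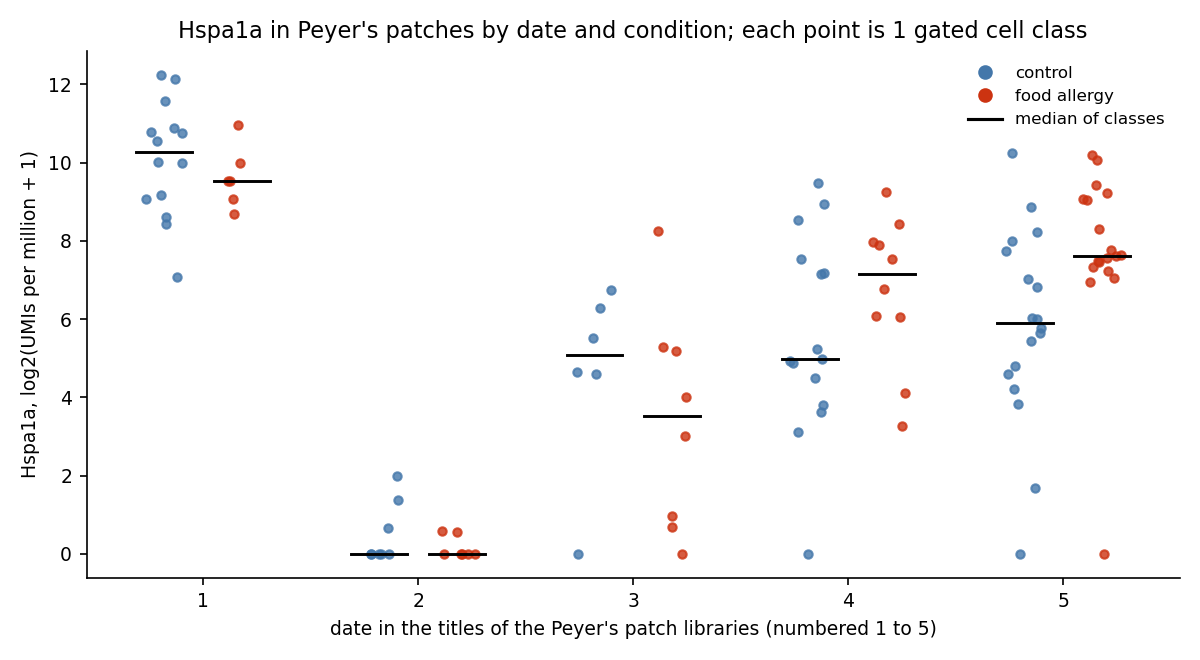
Hspa1a in the Peyer's patches, log2(CPM + 1), by date (horizontal axis) and condition; each point is 1 gated class and the bar is the median over classes. The medians of date 1 are high in both conditions (1264 and 740), those of date 2 are 0, and the food allergy median lies above the control median on dates 4 and 5; single classes go the other way on dates 1, 3, 4 and 5.

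The food allergy effect was compared between tissues in 7 classes. It was larger in the lamina propria for Hspa1a in ILC2-like cells (difference of log2 fold changes 6.36, SE 0.852, adjusted p = 0.000705 by edgeR), where 0.932% of 4506 genes differed, and for Hsp90aa1 in ILC3-like cells (1.37, SE 0.265, adjusted p = 0.0424; 0.246 with 4 markers required), where 0.0564% of 5316 did. The first rests on control levels near 0 in the lamina propria. For Hspa8 and Dnaja1 in ILC2-like cells no difference between tissues was detected (0.26, adjusted p = 0.613, and -0.21, adjusted p = 0.725), nor for Hspa1a in DC1-like cells (1.35, adjusted p = 0.363). No chaperone differed by this test in the other classes, where the share of genes called was 0% in NK- or ILC1-like, 0.205% in plasma-like, 0.117% in pDC-like, 0.0181% in DC1-like and 0.225% in monocyte-like cells.

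The IgDLow sort had 1 library per condition, so its differences have no replicate check and carry counting intervals only. ILC2-like cells (75 control, 116 food allergy) had 29.6 and 327 CPM of Hspa1a, a ratio of 11.1 (95% interval 4.59 to 34.8). Hspa8 was at 1118 and 2197 (1.97, 1.67 to 2.32) and Dnajb1 at 76.9 and 337 (4.38, 2.45 to 8.49). Dnaja1 was at 3052 and 962 (0.315, 0.273 to 0.364). Hspa8 and Dnaja1 thus lay on the same sides in the nonTB, IgDLow and Peyer's patch sums of this class. The IgDLow libraries fell on date 7, as did library 3 of the nonTB sort, so they are not a check apart from that date. In the IgDLow sort Dnaja1 was also lower in ILC3-like (0.554, 0.457 to 0.668), NK- or ILC1-like (0.547, 0.382 to 0.776) and T-like cells (0.806, 0.684 to 0.951). It was higher in follicular B-like cells (1.59, 1.01 to 2.66), and in the remaining classes the interval included 1. Hspa1a was higher in the food allergy library in each of the other classes with counts in both, from a ratio of 1.92 (1.18 to 3.20) in macrophage-like cells to 14.9 (9.37 to 24.8) in ILC3-like cells, 22.1 (11.6 to 46.6) in pDC-like cells and 67.9 (11.7 to 2723) in NK- or ILC1-like cells.

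Genes whose levels followed Hspa1a most closely within classes were ranked over 60 lamina propria nonTB sums of 14 classes, which share libraries and depth, among 2495 genes and after centring on each class mean. Apart from chaperones these were Gm26825 (Pearson's r 0.72), Rpl37a (0.68), Gapdh (0.67), Rpl38 (0.67) and Rpl37 (0.65). Among the chaperones Hspa1b (0.80), Hspa8 (0.75) and Hsp90aa1 (0.70) were closest, and Dnaja1 was at -0.29. Of the genes that are not among the 10 chaperones, Hspa8 was followed most closely by Rpl37a (0.80), Naca (0.74), Cct5 (0.73), Cox4i1 (0.73) and Rpl41 (0.72), while among the chaperones Hspa1a was closest (0.75) and Dnaja1 was at -0.37.

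In cultured KLRG1+ ILC2s the 2 J-protein genes rose with α-CGRP alone, and the other 8 chaperones did not pass the test. All 10 genes were tested among 12355; 2 rose and none fell with α-CGRP against base medium, where 1.49% of genes were called (1.08% up), and the members' median log2 fold change was 0.15 against 0 over all genes. In simulated data this comparison called only 4.35% of genes given a log2 change of 1. In bulk samples fewer cells of a type and less RNA per cell cannot be told apart. Levels below are CPM, by library.

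Dnajb1 was at 33.7, 32.2 and 45.6 in base medium and at 85.9, 120, 116 and 62.2 with α-CGRP. Every α-CGRP library was above every base library, and the rise was 2.58-fold (log2 1.37, SE 0.309, adjusted p = 0.0213 by edgeR); the call was lost without base library 1 or 2 (adjusted p up to 0.143). Dnaja1 was at 122, 118 and 127 in base medium and at 241, 224, 240 and 280 with α-CGRP. Both groups were tight and did not overlap, and the rise was 2.01-fold (log2 1.01, SE 0.224, adjusted p = 0.0186); the call was lost without any 1 of the 3 base libraries or α-CGRP library 4 (adjusted p up to 0.122). The direction of Dnaja1 here was opposite to that in ILC2-like cells in food allergy, a separate comparison in uncultured cells.

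The Hsp70 genes varied widely between libraries of a culture group. Hspa1a was at 141, 335 and 449 in base medium, at 272, 133, 681 and 319 with α-CGRP, at 128, 113 and 234 with IL-25 and at 456, 349 and 355 with both. Base and α-CGRP overlapped throughout, whereas all 3 libraries with both agents lay above the 3 with IL-25 alone. That difference, 2.44-fold, did not pass (unadjusted p = 0.00755, adjusted p = 0.214 by edgeR). Hspa8 was at 629, 1105 and 994 in base medium, at 1014, 410, 1449 and 1054 with α-CGRP, at 828, 1176 and 826 with IL-25 and at 814, 1221 and 795 with both, overlapping in every pairing. The Hspa1a and Hspa1b pair summed gave log2 0.12 for α-CGRP against base (adjusted p = 0.947) and 1.2 for both agents against IL-25 (adjusted p = 0.265).

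None of the 10 genes was called in the other comparisons by edgeR: IL-25 against base (0.0728% of genes called), both agents against IL-25 (0.631%), against α-CGRP (0.113%) and against base (0.882%), and the interaction (0%). Dnaja1 was at 86.0, 120 and 110 with IL-25 and at 186, 159 and 177 with both, without overlap (1.65-fold, unadjusted p = 0.00509, adjusted p = 0.184). Its libraries with both agents also lay above all base libraries (log2 0.51, adjusted p = 0.405) and below all α-CGRP libraries (adjusted p = 0.716). These comparisons share libraries. Dnajb1 was at 26.2, 23.4 and 51.0 with IL-25 and at 63.7, 40.0 and 44.5 with both, overlapping, and lower with both than with α-CGRP alone by a log2 difference of -0.96 (adjusted p = 0.489).

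Among the remaining members Hsp90aa1 was at 318, 353 and 428 in base medium and 326, 573, 487 and 574 with α-CGRP, and Hsp90ab1 at 935, 735 and 964 and 897, 1443, 1031 and 1349; both overlapped. Hspd1 was at 145, 151 and 169 with IL-25 and at 90.6, 111 and 111 with both, separate but not called (adjusted p = 0.376). Hspe1 ran from 30.5 to 90.2 and Hsph1 from 24.4 to 98.6 over the 13 libraries. Of the lists of other chaperones, 0 of 31 co-chaperones and 1 of 15 tested endoplasmic reticulum chaperones rose with α-CGRP against base: Creld2, from a mean of 138 to 285 (2.06-fold, adjusted p = 0.0364 by edgeR). Of 23 tested immediate early genes 1 rose, the phosphatase gene Dusp1, from 6.30 to 19.2 (3.05-fold, adjusted p = 0.0171).

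**Figure D4:**
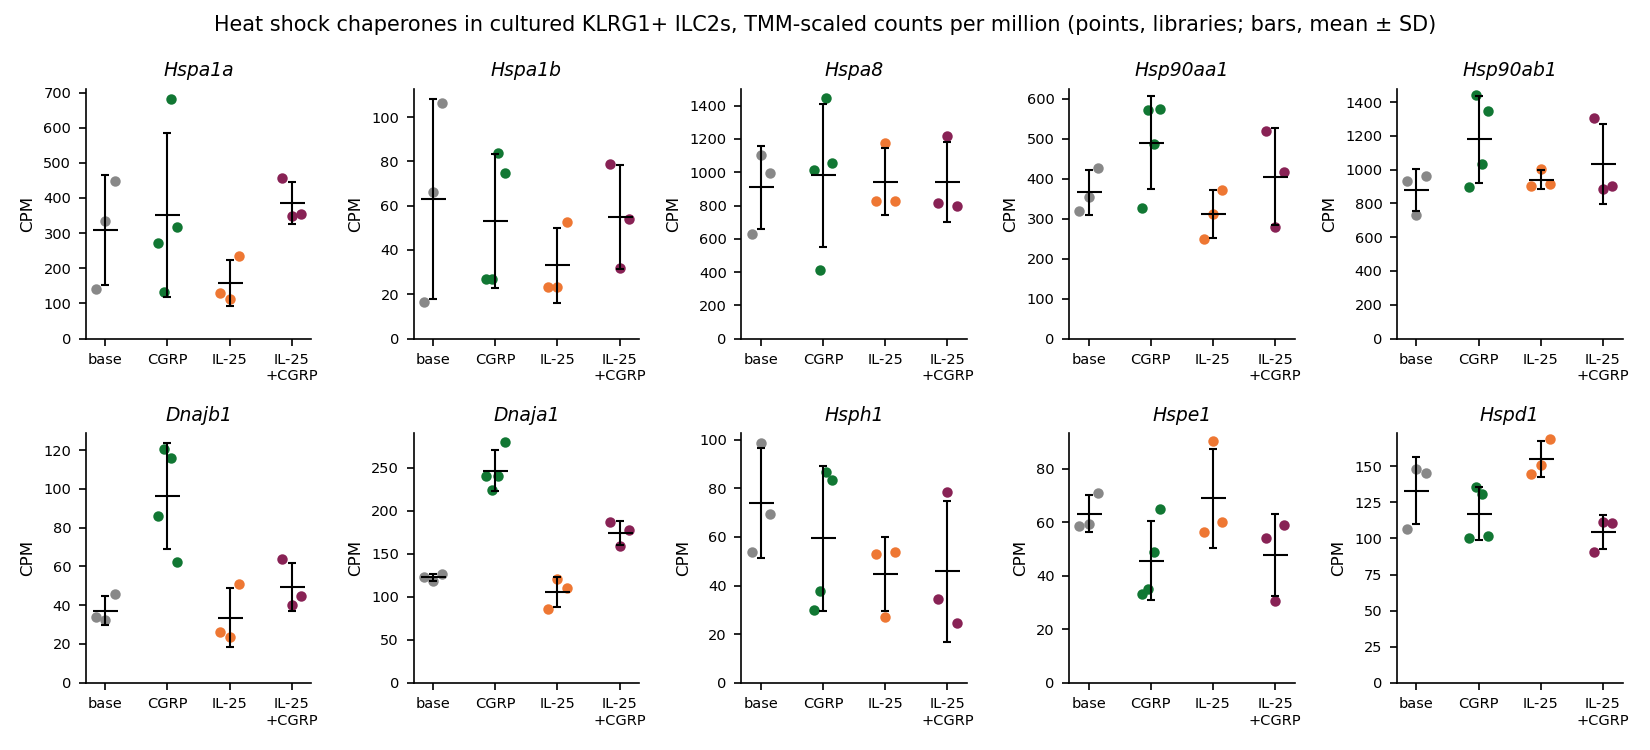
Levels of the 10 chaperone genes in cultured ILC2s in TMM-scaled CPM (vertical axes, from 0) by culture group; points are libraries and bars the mean ± SD. For Dnajb1 and Dnaja1 the 4 α-CGRP libraries lie above the 3 base libraries, and Hspa1a spreads from 113 to 681 over all groups.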

How the data were processed

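The deposited single-cell matrix held UMI counts per gene and cell (3′ droplet libraries), and the deposited bulk matrix held RSEM expected counts per gene (full-length libraries without molecular identifiers), per the file headers and the labels' protocols. The authors used bcl2fastq, Bowtie2, RSEM and Cell Ranger with the build mm10, per the submitters' processing notes; versions, parameters and annotation are not given in the sources used here. Rn45s stayed in the tables.

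The chaperones and all gene lists were chosen with earlier results of these data known. Named besides the 10 members were, of each other list, up to 3 genes with the lowest adjusted p past 0.05, and the 5 genes most correlated with Hspa1a and with Hspa8. Cells (at least 501 UMIs and at most 13.4% mitochondrial in the matrix) entered a class with at least 3 of its markers. No doublet caller was run; cells on 1 marker list only served as an alternative. Sums of UMI counts were taken for each class and library, or per class, date and condition in the Peyer's patches, for sums of at least 10 cells. Levels are counts per 1000000 UMIs of a sum (CPM), and in bulk TMM-scaled CPM from expected counts rounded to whole numbers. Tests were edgeR 4.0.16 quasi-likelihood fits (R 4.3.3, limma 3.58.1) with TMM, edgeR's filter on low counts and Benjamini-Hochberg adjustment over all genes tested, with the title date as a term in the single-cell fits and 1 fit over all 13 bulk libraries. The ratio intervals printed for single-cell sums cover counting error only. The steps were tested on simulated data. For α-CGRP against base medium, 4 of 92 genes given a log2 change of 1 were called (4.35%), and 58.1% of those given 2. At a log2 change of 1, 77.3% were called in lamina propria ILC2-like and 79.8% in Peyer's patch T-like sums. Bulk genes that did not pass may thus still have changed by such amounts. The simulated counts held no date effect, and their spread followed the trend over all genes. The shares called may therefore be too high for genes that vary more, such as Hspa1a between Peyer's patch dates. Alternatives were DESeq2 1.42.0, RLE scaling, no filter, no date term, a replicate block, Rn45s left out, 4 markers, cells of at least 1000 UMIs, and each library left out. Chosen after seeing the data were 2 markers, cells on 1 list only, no shared barcodes, and the Hspa1a and Hspa1b sum. Depth per library is in the report; 1 food allergy Peyer's patch library was not analysed here.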

Additional observations from a re-analysis of the deposited data

Results flagged for a closer look

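In the Peyer's patch sums and the α-CGRP cultures 110 groups of 4 or 5 values were examined for a highest or lowest value far from the others, and 34 (30.9%) had one. The cutoff would give about 1 in 20 for independent, normally distributed values. These groups share libraries and their CPM need not be normal, so the share cannot be set against that rate. All 34 were the highest of 5 Peyer's patch sums (1 per date), and 32 of them were the sum of date 1; the others were Dnajb1 in food allergy ILC3-like cells (date 5) and Dnaja1 in food allergy pDC-like cells (date 4). The values below are CPM, and their source was not tested.

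Hspa1a had such a value in 8 groups. In control it was 1737 in ILC3-like, 1765 in NK- or ILC1-like, 1012 in T-like, 579 in follicular B-like and 1027 in pDC-like cells. In food allergy it was 1012 in NK- or ILC1-like, 734 in T-like and 746 in follicular B-like cells. Hspa1b stood apart beside it at 253 in control ILC3-like, 36.3 in control follicular B-like and 114 in control pDC-like cells, and at 152 in NK- or ILC1-like, 97.1 in T-like and 56.8 in follicular B-like cells of food allergy.

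Dnajb1 was apart at 542 in control ILC3-like, 565 in control NK- or ILC1-like, 142 in control follicular B-like and 534 in control pDC-like cells, and at 173 in ILC3-like and 367 in NK- or ILC1-like cells of food allergy. Hspa8 was apart at 3157 in control NK- or ILC1-like and 2657 in control T-like cells, and at 1841 in food allergy T-like cells. Hsp90aa1 was at 1398 in control NK- or ILC1-like, 894 in control follicular B-like and 1224 in control pDC-like cells, and Hsp90ab1 at 1800 in control ILC3-like, 1637 in control NK- or ILC1-like and 1409 in control T-like cells. The remaining values were Hsph1 at 52.3 in control ILC3-like cells, Hspe1 at 635 and Hspd1 at 192 in control NK- or ILC1-like cells, Hspd1 at 156 in control pDC-like cells, and Dnaja1 at 296 in food allergy pDC-like cells.

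The food allergy effect differed between lamina propria and Peyer's patches by a test of the difference for Hspa1a in ILC2-like cells (6.36 on the log2 scale) and for Hsp90aa1 in ILC3-like cells (1.37).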

How the results depend on the processing

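No chaperone call changed direction under any alternative run. Of 23 chaperone calls (2 bulk, 17 lamina propria, 4 Peyer's patches), 4 passed under every alternative that could be fitted: Hspa1a, Hspa8 and Dnaja1 in ILC2-like and Hspa1a in DC1-like cells of the lamina propria. For Hspa1a in ILC2-like cells this says little, since it entered the test only through its food allergy counts. With DESeq2 8 calls did not pass, and without the date term 16 of the 21 single-cell calls did not; 4 did not with 4 markers required (nor did 1 tissue difference), 5 did not with cells on 1 list only and 2 with 2 markers. The calls lost in DESeq2 were Hsp90ab1, Dnajb1 and Hspe1 in ILC2-like, Hsp90aa1 in pDC-like and DC1-like and Hspa8 in DC2-like cells of the lamina propria, and both of the Peyer's patch monocyte-like cells. The cause was not tested. Low UMI counts limit Hspa1b and Hsph1, which could not be tested in most classes.

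Chaperone calls in the lamina propria numbered 17 in the main analysis, 11 with DESeq2, 27 without the count filter, 5 without the date term, and 13 to 18 with 1 library left out. All genes called over its 9 classes numbered 1407, and 620, 2597, 464 and 717 to 1816 in the same order. In the Peyer's patches 4 chaperone calls became 10 without the filter, 0 without the date term, and 0 to 7 with 1 date left out (ILC2-like and monocyte-like cells rest on dates 4 and 5 and could not be refitted without either). They were 4 with 4 markers and 4 with cells on 1 list only, compared over the classes that could be refitted, but not the same 4. With 4 markers Hspa1a (log2 1.45, adjusted p = 1.92e-11 by edgeR) and Hspa1b were called in ILC3-like cells. Cells on 1 list only gave Hspa1a calls in DC1-like (1.10) and pDC-like cells (1.65, adjusted p = 6.64e-17 by edgeR). DESeq2 called Hspa1a in DC1-like cells (adjusted p = 0.0278). The calls added without the filter were Hspa1a in ILC3-like, NK- or ILC1-like, plasma-like, pDC-like, DC1-like and mast-like cells. All genes called there numbered 217, and 101 with DESeq2, 861 without the filter, 1 without the date term, 348 with 4 markers, 363 with cells on 1 list only, and 26 to 301 with 1 date left out. The tissue difference went from 2 chaperone calls to 1 with 4 markers.

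Bulk chaperone calls numbered 2, and 0 to 2 with 1 library left out. Genes called in the main analysis, with DESeq2, without the filter and with 1 library left out numbered 9, 24, 33 and 3 to 11 for IL-25 against base; 184, 509, 328 and 65 to 215 for α-CGRP against base; 78, 303, 225 and 38 to 208 for both agents against IL-25; 14, 44, 74 and 5 to 27 against α-CGRP; and 109, 281, 184 and 44 to 157 against base. The interaction went from 0 to 15 without the filter. Without the filter Hspa1a was called for both agents against IL-25 (log2 1.22, adjusted p = 0.00726 by edgeR).

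Whether equal replicate numbers mark paired samples is not stated in the labels. After centring on group means, same-numbered bulk libraries correlated at -0.188 to 0.197 over 18 pairs. Of 36 comparisons 10 matched best with their own number. With so few libraries per group this check cannot show whether the samples were paired. With a replicate block, bulk chaperone calls went from 2 to 1, as Dnaja1 did not pass (log2 0.94, adjusted p = 0.119 by edgeR). Genes called became 105 for α-CGRP against base, 6 for both agents against α-CGRP and 70 for both against base. In the lamina propria the block gave 928 genes and 14 chaperone calls.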
